A study of Mus musculus with 9 samples.

Results

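The genes described here are the interleukin, chemokine, tumour necrosis factor (TNF) and NF-kB genes of ROC6, a murine oral squamous cell line, after knockout of Csmd3. They were chosen by symbol alone: names that begin with Il, Cxcl, Ccl or Csf and a digit, with Cxcr, Tnf, Nfkb or Lif, or with Traf and a digit, and the names Rel, Rela, Relb, Birc2 and Birc3. A member also had to occur once in the table and to reach a mean of 0.5 FPKM over the 9 libraries. Of 15446 uniquely named genes, 106 had such a symbol and 63 of these passed: 21 ligands and soluble antagonists, 21 receptors and 21 pathway regulators. Member means ran from 0.517 to 202 FPKM, which divides fragments by transcript length and by the mapped fragments of the library. The members just inside the limit were Tnfsf13 at 0.517 FPKM and Il17rb and Il23r, both at 0.540 FPKM, and the genes just outside it were Il20rb at 0.443 and Tnfrsf25 at 0.423 FPKM. The other 43 matching genes were too low and are not described. Of the 63, 14 had a group mean under 0.5 FPKM, so their passing rested on the groups where they were high. In 7 of these the low group was the control: Ccl5, Il1r1, Il18rap, Il33, Lif, Tnfrsf26 and Tnfsf13.

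The study sequenced polyadenylated RNA from 3 groups of 3 libraries: CSMD3 knockout cells made with guide 1, CSMD3 knockout cells made with guide 2, and wild-type control cells, called WT Control in the labels. All were the same cell line, kept in DMEM with serum and antibiotics, and no ligand or inhibitor is named for any group. The series describes the knockouts as clone 1 and clone 2, so what a guide did and what is particular to its clone cannot be told apart. The labels do not say whether the 3 libraries of a group came from separate cultures, and p-values therefore measure the scatter of these libraries alone, and that scatter may be technical.

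The labels were not checked against the targeted gene, since Csmd3 is not analysed here. The summed FPKM of all uniquely named genes was between 162625 and 168620 per library, and read depth is unknown. All 63 members, and 15441 of the 15446 genes, had the means of guide 1 and guide 2 both above or both below that of the control. The submitters' name for the table speaks of differential genes in common, so its rows appear to have been selected. The shares of all tested genes given here are shares of such rows, not of the transcriptome, and the sharing of a direction by both knockouts is not counted as a result, and the values of each knockout stand side by side. Both comparisons use the same 3 controls. Of 12 epithelial markers 5 were analysed, namely Krt8, Krt17, Krt18, Itgb4 and Sfn. Krt8 and Krt18 are not particular to squamous epithelium. Means in control, guide 1 and guide 2 were 0.125, 0.0666 and 0.00921 FPKM for Krt17, 0, 0.524 and 0.0768 for Krt8, 3.70, 119 and 5.01 for Krt18, 1.03, 2.99 and 1.61 for Sfn, and 0.843, 0.309 and 0.612 for Itgb4. The sum of all 5 was 4.94 to 6.59 FPKM in control, 118 to 130 with guide 1 and 6.57 to 8.15 with guide 2, and Krt18 made up most of it with guide 1. Among members with a control mean of 0.5 FPKM or more, the third control library was under 0.6 of the next lowest for Cxcl15, Il1rn, Il17rb and Il18. Values without it are given where they move a result. Groups with a mean under 0.5 FPKM were not screened in this way.

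NF-kB is a family of dimeric transcription factors held in the cytoplasm by inhibitor of kappaB (IkB) proteins. Receptors of the interleukin-1 and TNF families recruit adaptors and TRAF ubiquitin ligases, the IkB kinase complex is activated, IkB is degraded, and the freed dimers enter the nucleus and switch on cytokine and chemokine genes together with their own inhibitors. Squamous epithelia use these circuits to call in leukocytes, and interleukin-6 family cytokines such as LIF act beside them through the gp130 receptor and STAT3.

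The windows just upstream of several of these genes hold the sequence that NF-kB dimers are known to bind. Printed are the 250 bases before the transcript start of 5 members with such a match, chosen because the first 3 encode NF-kB inhibitors that were higher in both knockouts and the last 2 encode cytokines whose levels differed between the knockouts. The sequences are RefSeq's for GRCm38.p6, 5′ to 3′ on the strand of the gene, and capitals mark matches to the kappaB consensus on either strand. The windows are chr12:55492648-55492897 (minus strand) for Nfkbia, chr17:45555450-45555699 (plus) for Nfkbie, chr10:19015411-19015660 (minus) for Tnfaip3, chr5:92348890-92349139 (minus) for Cxcl10 and chr5:30012864-30013113 (plus) for Il6.
Nfkbia: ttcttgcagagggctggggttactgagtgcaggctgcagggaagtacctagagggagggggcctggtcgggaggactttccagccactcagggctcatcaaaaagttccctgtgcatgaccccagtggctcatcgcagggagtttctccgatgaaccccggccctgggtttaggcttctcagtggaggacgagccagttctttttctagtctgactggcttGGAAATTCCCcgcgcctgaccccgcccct
Nfkbie: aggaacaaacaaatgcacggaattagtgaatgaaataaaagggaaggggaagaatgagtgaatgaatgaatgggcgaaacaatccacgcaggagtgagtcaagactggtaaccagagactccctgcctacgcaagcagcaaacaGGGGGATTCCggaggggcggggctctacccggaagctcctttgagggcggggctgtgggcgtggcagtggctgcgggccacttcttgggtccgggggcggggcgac
Tnfaip3: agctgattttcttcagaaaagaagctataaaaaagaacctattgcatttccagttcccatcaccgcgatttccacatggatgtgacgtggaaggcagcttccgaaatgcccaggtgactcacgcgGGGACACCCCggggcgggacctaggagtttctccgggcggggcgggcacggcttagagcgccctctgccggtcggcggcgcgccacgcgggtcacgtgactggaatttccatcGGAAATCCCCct
Cxcl10: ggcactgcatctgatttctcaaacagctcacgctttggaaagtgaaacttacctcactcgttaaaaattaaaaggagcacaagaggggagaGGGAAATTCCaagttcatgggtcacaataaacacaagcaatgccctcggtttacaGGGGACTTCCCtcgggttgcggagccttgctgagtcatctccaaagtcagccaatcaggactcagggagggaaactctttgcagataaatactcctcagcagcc
Il6: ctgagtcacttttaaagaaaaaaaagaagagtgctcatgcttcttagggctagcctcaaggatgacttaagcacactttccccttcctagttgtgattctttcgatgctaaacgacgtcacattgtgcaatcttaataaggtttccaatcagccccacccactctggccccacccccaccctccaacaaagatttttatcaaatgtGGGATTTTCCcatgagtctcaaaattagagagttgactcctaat
The match of Nfkbia begins 29 bases before the start, that of Nfkbie 106, and that of Il6 44. Tnfaip3 has matches from 125 and 12 bases before its start, and Cxcl10 from 159, 104 and 103, of which the last pair overlap. A window was available for 48 members, and 10 of them (20.8%) held the kappaB consensus, against 10.5% of 5367 tested genes with a window and 7.25% of all 32851 windows. The AP-1 site TGANTCA was found in the windows of 10 members (20.8%), against 5.07% of tested genes and 6.75% of all windows. A match is a run of letters and was not shown here to be bound.

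More members were called higher than lower in each knockout. The fitted differences of the regulators were above 0 except those of Birc2, Tnfaip8 and Traf7. Some were small, such as 0.03 for Nfkb1 with guide 1 and 0.04 for Traf4 with guide 2. Of 21 regulators, 13 were called higher and 1 lower with guide 1. With guide 1, 30 of 63 members rose (47.6%, against 29.6% of all 7757 genes tested) and 17 fell (27.0%, against 36.2%). With guide 2, 33 rose (52.4%, against 30.9% of all tested genes) and 15 fell (23.8%, against 31.9%). These calls are limma tests on log2(FPKM + 1) with Benjamini-Hochberg adjustment over all tested genes, at an adjusted p under 0.05. With close libraries this threshold is passed by most genes, so size adds to the count: changes of at least 1 log2 unit were called upward in 14 members and downward in 9 with guide 1, where 5.58% and 4.60% of all tested genes had them. With guide 2 they were called upward in 8 members and downward in 6, where 4.06% and 4.10% of all tested genes had them. These counts are partly set by the limit of 0.5 FPKM, which all tested genes also had to pass. All 7 members with a control mean under it were called higher with guide 2, and Lif, Il18rap, Il33 and Ccl5 are among the 8. Tnfsf10 and Il17rb, among the 6, passed through the control libraries. In 33 members every guide 1 library was above every control and in 19 below (31.9% and 38.2% of all tested genes), and for guide 2 these were 35 and 15 members (32.6% and 34.1% of all tested genes). In bulk RNA, fewer cells of a type and less RNA per cell cannot be told apart.

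By role, for the mean of both knockouts against control, 11 ligands rose and 9 fell, 12 receptors rose and 8 fell, and 16 regulators rose and 2 fell. Over all members 39 rose and 19 fell in that comparison, in which 37.0% of all tested genes rose and 41.3% fell. The median log2 difference was 0.18 for ligands, 0.38 for receptors and 0.41 for regulators, beside -0.07 for all tested genes. Between the subgroups the interleukin-1 receptor family had a median of 1.32 over 4 genes (1.44 with guide 1 and 1.245 with guide 2). The IkB family had 0.79 over 4 (0.71 and 0.92), and the TNF receptor superfamily 0.67 over 7 (0.90 and 0.35). The interleukin-17 receptors had -0.69 over 3 (-1.34 and -0.05). The haematopoietin and class II cytokine receptors had -0.57 over 7 (-0.86 and -0.50).

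**Figure D1:**
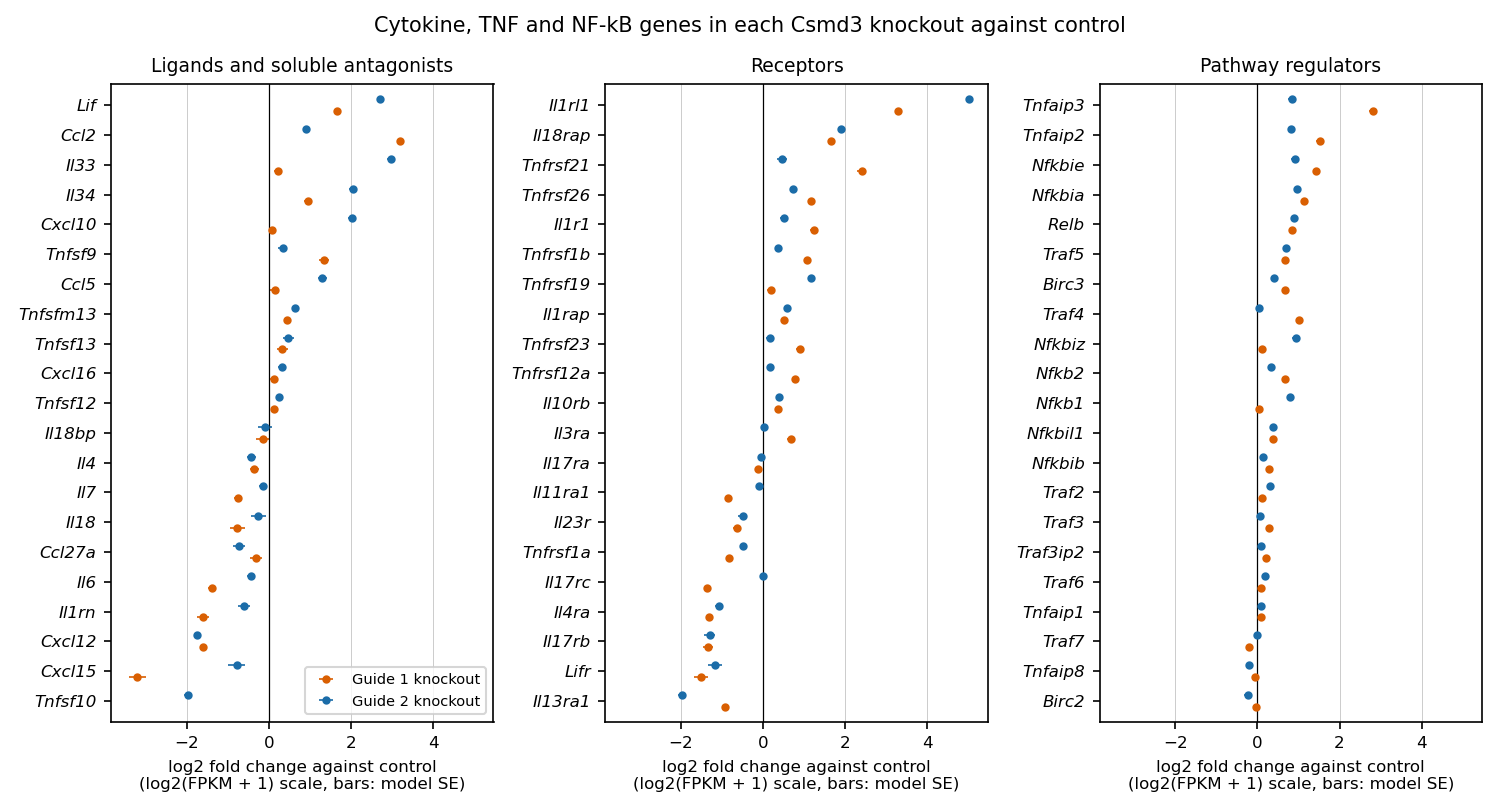
Difference from control of the members by role, as log2(FPKM + 1) with the standard error of the model, for guide 1 and guide 2; Tnfsf10 with guide 1, listed at 0 in all 3 libraries, is left out. Ligands and receptors spread to both sides of 0, and the regulators lie at or above 0 apart from small negative values of Birc2, Tnfaip8 and Traf7.

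Among the chemokines, the CXCR4 ligand Cxcl12 fell in both knockouts, and Ccl2, Cxcl10 and Ccl5, which attract monocytes and T cells, rose in a guide-dependent way. Cxcl12 had the highest control level of all members, at 383, 379 and 357 FPKM in the control libraries, 122, 116 and 125 with guide 1, and 112, 110 and 112 with guide 2. Every knockout library was far below the lowest control. The log2 difference was -1.61 ± 0.0431 (SE) with guide 1 (adjusted p = 8.61e-10) and -1.74 with guide 2 (adjusted p = 9.81e-10). Ccl2, the monocyte attractant, stood at 0.563, 0.628 and 0.465 FPKM in control, 13.2, 12.7 and 13.7 with guide 1, and 1.86, 2.13 and 1.69 with guide 2. The 3 groups did not overlap, and guide 1 was the highest. Ccl2 rose by 3.20 ± 0.0727 log2 units with guide 1 (adjusted p = 3.33e-10) and by 0.90 with guide 2 (adjusted p = 2.56e-06).

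Cxcl10, an interferon-inducible ligand of CXCR3, was at 2.28, 1.89 and 1.79 FPKM in control, 1.97, 2.02 and 2.52 with guide 1, and 10.8, 11.0 and 11.3 with guide 2. Guide 1 overlapped the control and guide 2 lay far above both. The log2 difference was 0.09 with guide 1 (adjusted p = 0.381) and 2.02 ± 0.0836 with guide 2 (adjusted p = 2.36e-08). Ccl5, which attracts T cells, was near 0 in control (0.163, 0.0578 and 0 FPKM) and with guide 1 (0.0432, 0.205 and 0.316), and stood at 1.56, 1.53 and 1.86 FPKM with guide 2. Its difference was 0.14 with guide 1 (adjusted p = 0.267) and 1.30 ± 0.107 with guide 2 (adjusted p = 2.89e-06).

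Cxcl15, a chemokine that attracts neutrophils in mouse lung, was lower in both knockouts and lowest with guide 1. It was at 18.9, 19.6 and 9.79 FPKM in control, 0.895, 0.811 and 0.627 with guide 1, and 8.09, 9.43 and 8.15 with guide 2. The guide 1 libraries were lowest, the guide 2 libraries lay just under the control, and the third control library was about as low as guide 2. Cxcl15 fell by 3.21 log2 units with guide 1 (SE 0.207, adjusted p = 4.02e-07) and by 0.78 with guide 2 (adjusted p = 0.0076), or by 1.09 without that control library (adjusted p = 7.64e-06). Of the other 2 chemokine members, Ccl27a, a skin-homing ligand, differed by -0.31 with guide 1 (adjusted p = 0.0943), or -0.46 without guide 1 replicate 2 (adjusted p = 0.0114), and by -0.74 with guide 2 (adjusted p = 0.00155), and Cxcl16, a membrane-bound ligand of CXCR6, by 0.13 (adjusted p = 0.279) and 0.33 (adjusted p = 0.0145), or 0.26 without the third guide 2 library (adjusted p = 0.0591).

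The leukocyte markers in the same libraries are given for scale. Of 25 listed markers 5 were analysed, Cd68 passing the filter, and their sum was 0.623 to 1.12 FPKM in control, 1.83 to 2.37 with guide 1 and 2.53 to 3.07 with guide 2, with Lyz2 and Gata3 at 0 in control. In the same order of groups, the 3 of 11 fibroblast markers analysed summed to 3.70 to 3.998, 8.81 to 12.2 and 13.8 to 14.6 FPKM. Their means were 2.51, 9.25 and 5.60 FPKM for Twist2, 1.30, 1.605 and 7.83 for Postn, and 0.0139, 0.0307 and 0.8275 for Col1a2. The 3 of 8 endothelial markers summed to 1.14 to 1.68, 0.678 to 0.765 and 0.873 to 0.954 FPKM. The endothelial sum joins genes that went opposite ways. Means in that order were 1.47, 0.0334 and 0.850 FPKM for Erg, 0.005, 0.667 and 0.0569 for Kdr, and 0, 0.0192 and 0.0140 for Vwf. The part of all these markers in the cytokine results was not tested.

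**Figure D2:**
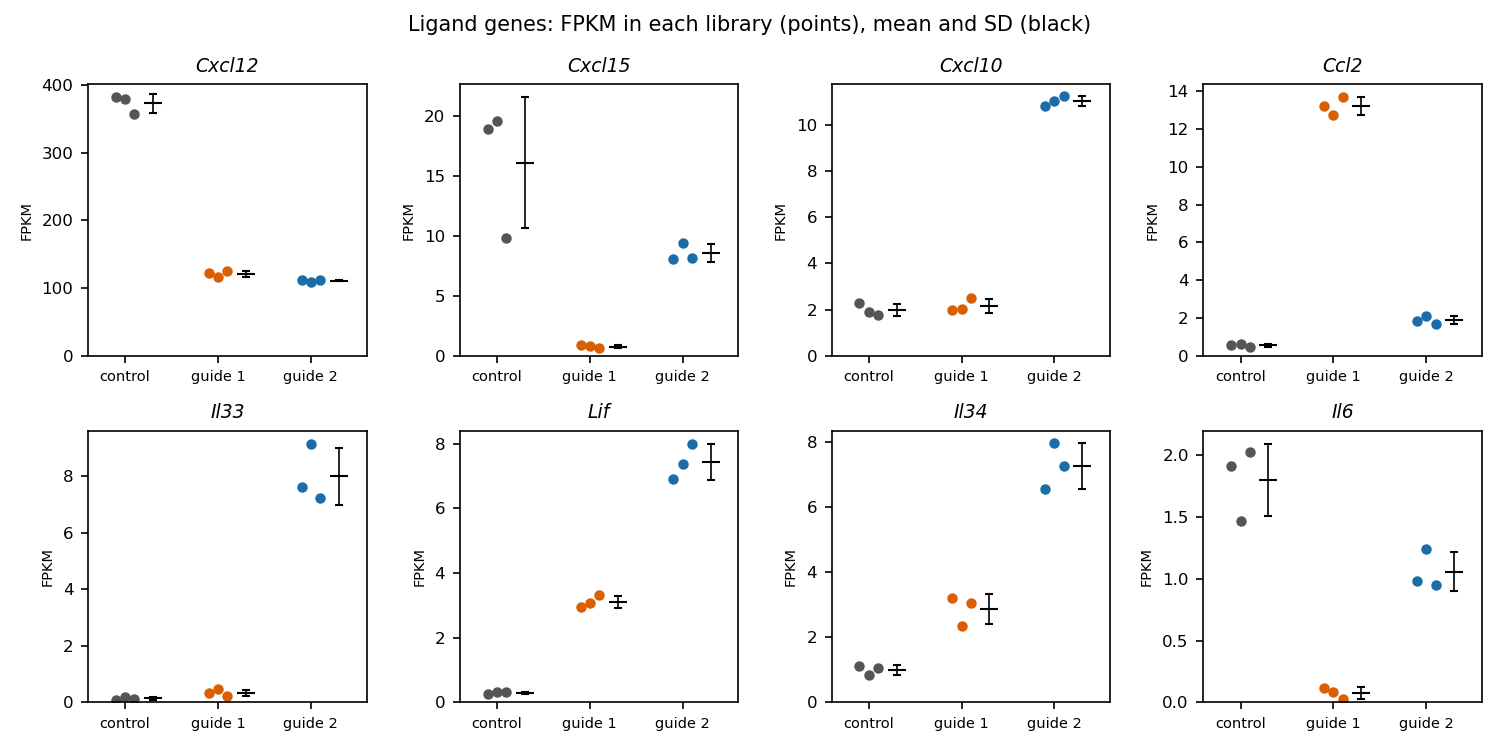
FPKM of 8 ligand genes in each library by group; points are libraries, black marks the mean and SD of 3, and each axis starts at 0. Cxcl12 is lower in both knockouts, Ccl2 stands out with guide 1, Cxcl10 and Il33 with guide 2, and Lif and Il34 step upward from control to guide 1 to guide 2.

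The interleukin-1 family ligands moved in opposite directions. Il33, an alarmin held in the nucleus and released from damaged epithelium, was at 0.0808, 0.204 and 0.134 FPKM in control, 0.318, 0.459 and 0.231 with guide 1, and 7.63, 9.14 and 7.21 with guide 2. All 3 guide 1 libraries were above the control by a small step and the guide 2 libraries were an order higher. The log2 difference was 0.23 with guide 1 (adjusted p = 0.0663) and 2.98 ± 0.0991 with guide 2 (adjusted p = 5.43e-09). The guide 1 difference passed without the third guide 1 library (0.28, adjusted p = 0.0445) and with a pseudocount of 0.1 in place of 1 (0.86, adjusted p = 0.0102).

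Il1rn, the secreted antagonist of the interleukin-1 receptor, was lower in both knockouts: 3.95, 3.68 and 2.18 FPKM in control, 0.431, 0.331 and 0.398 with guide 1, and 1.82, 1.71 and 1.78 with guide 2. The groups did not overlap, although the third control library came close to guide 2. The decrease was 1.60 log2 units with guide 1 (adjusted p = 4.37e-06) and 0.60 with guide 2 (adjusted p = 0.00425). Il18, a ligand that acts on T and NK cells, fell by 0.76 with guide 1 (adjusted p = 0.00513), and its difference was -0.25 with guide 2 (adjusted p = 0.269), or -0.45 without the third control library, which at 0.797 FPKM was the lowest control (adjusted p = 0.0492). Il18bp, the decoy that neutralizes it, differed by -0.15 and -0.09 and passed in neither knockout.

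The gp130 ligands Lif and Il6 went in opposite directions. Lif, which acts through LIFR and gp130, was at 0.264, 0.308 and 0.317 FPKM in control, 2.96, 3.08 and 3.32 with guide 1, and 6.90, 7.36 and 8.01 with guide 2. The groups were well apart and guide 2 was the highest. Lif rose by 1.67 ± 0.0682 log2 units with guide 1 (adjusted p = 1.5e-08) and by 2.70 with guide 2 (adjusted p = 1.1e-09). Il6 was at 1.91, 1.47 and 2.02 FPKM in control, 0.119, 0.0879 and 0.0244 with guide 1, and 0.986, 1.24 and 0.946 with guide 2. It was almost absent with guide 1 and intermediate with guide 2, without overlap. Il6 fell by 1.37 log2 units (adjusted p = 8.27e-07) and by 0.44 (adjusted p = 0.00277).

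Il34, the second ligand of the macrophage receptor CSF1R, was at 1.13, 0.838 and 1.04 FPKM in control, 3.20, 2.35 and 3.05 with guide 1, and 6.56, 7.97 and 7.27 with guide 2. Its order of groups was that of Lif, without overlap. Il34 rose by 0.95 ± 0.102 log2 units with guide 1 (adjusted p = 1.72e-05) and by 2.04 with guide 2 (adjusted p = 8.17e-08). Il7, a lymphocyte growth factor, fell by 0.76 with guide 1 (adjusted p = 2.66e-05) and differed by -0.15 with guide 2 (adjusted p = 0.148), or -0.22 without control replicate 3 (adjusted p = 0.0449). Il4, a type 2 cytokine, fell by 0.36 (adjusted p = 0.0167) and 0.43 (adjusted p = 0.0068) from control levels of 1.27 to 2.02 FPKM. The guide 1 call of Il4 was lost without guide 1 replicate 1 or control replicate 2 or 3 (adjusted p = 0.0558 to 0.0677).

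Of the TNF superfamily ligands, the death ligand Tnfsf10 (TRAIL) was nearly lost and the co-stimulatory ligand Tnfsf9 (4-1BBL) rose. Tnfsf10 was at 3.45, 3.04 and 2.71 FPKM in control, had a value of 0 in each guide 1 library, and stood at 0.0665, 0.0205 and 0 with guide 2. No fold is given for guide 1, where it is listed at 0, and with guide 2 it fell by 1.98 log2 units (adjusted p = 2.83e-08). Tnfsf9 was at 1.88, 1.37 and 1.08 FPKM in control, 4.62, 4.93 and 6.01 with guide 1, and 1.92, 2.09 and 2.15 with guide 2. Guide 1 was clearly the highest, and guide 2 exceeded the highest control by a narrow margin. The difference was 1.35 ± 0.12 with guide 1 (adjusted p = 4.32e-06) and 0.33 with guide 2 (adjusted p = 0.0333), the latter not passing without replicate 2 or 3 of guide 2 or of control (0.22 to 0.32, adjusted p = 0.0767 to 0.116). Tnfsf12, Tnfsf13 and the read-through gene Tnfsfm13 share 48.3%, 60.0% and 78.1% of their exonic bases with overlapping genes, so their log2 differences of 0.13 to 0.65 are uncertain.

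The 4 interleukin-1 receptor family genes that reached the level for membership were called higher in both knockouts. Il1r1 and Il18rap reached it through the knockout libraries, and Il1r2 and Il18r1, of the same family, were below it, so this count and the family median are partly set by the limit. Il1rl1 encodes ST2, the receptor for interleukin-33, and was at 6.18, 6.47 and 6.49 FPKM in control, 72.9, 70.0 and 70.3 with guide 1, and 228, 237 and 243 with guide 2. The groups were far apart and narrow, and the guide 2 libraries were the highest. The log2 difference from control was 3.29 ± 0.0416 with guide 1 (adjusted p = 8.73e-12) and 5.00 with guide 2 (adjusted p = 5.7e-13). Guide 2 exceeded guide 1 by 1.72 for Il1rl1 (adjusted p = 3.05e-09) and by 2.75 for its ligand gene Il33 (adjusted p = 1.92e-08).

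Il18rap, the accessory chain of the interleukin-18 receptor, was at 0.0941, 0.0827 and 0.165 FPKM in control, 2.83, 2.38 and 2.35 with guide 1, and 2.85, 3.23 and 3.43 with guide 2. All 6 knockout libraries were far above the control, which was close to 0. It rose by 1.66 ± 0.0826 log2 units (adjusted p = 6.13e-08) and 1.90 (adjusted p = 3.09e-08). Il1r1, the signalling receptor for interleukin-1, was at 0.0239, 0.0349 and 0.102 FPKM in control, 1.76, 1.34 and 1.32 with guide 1, and 0.467, 0.445 and 0.578 with guide 2. The groups did not overlap, and guide 1 was the highest. Il1r1 rose by 1.23 (adjusted p = 1.14e-06) and 0.51 (adjusted p = 0.000768). Il1rap, the accessory chain shared by the receptors for interleukin-1 and interleukin-33, rose from 2.10 to 2.36 FPKM in control to 3.25 to 3.79 and 3.68 to 4.08 FPKM, by 0.50 (adjusted p = 9.04e-05) and 0.59 (adjusted p = 3.32e-05).

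Il1r1, Il1rl1 and Il18rap lie near each other in the RefSeq gene order of GRCm38.p6, with Il1rl2, not analysed here, between the first pair and Il18r1 between the last. Il18r1, which encodes the ligand-binding chain of the interleukin-18 receptor, was below the level for membership, with means of 0.00895 FPKM in control, 0.0607 with guide 1 and 0.428 with guide 2. This neighbourhood was noticed after the values were seen. The TNF receptor genes Tnfrsf26 and Tnfrsf23 are also near neighbours, with Tnfrsf22, not analysed here, between them, and both had higher means in each knockout than in control. Il11ra1 and Ccl27a adjoin each other, with means in control, guide 1 and guide 2 of 8.90, 4.44 and 8.23 FPKM for Il11ra1 and 2.41, 1.80 and 1.06 FPKM for Ccl27a. Birc2 and Birc3 also adjoin each other: the log2 difference with guide 1 was -0.04 for Birc2 (adjusted p = 0.714) and 0.67 for Birc3 (adjusted p = 3.47e-05).

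**Figure D3:**
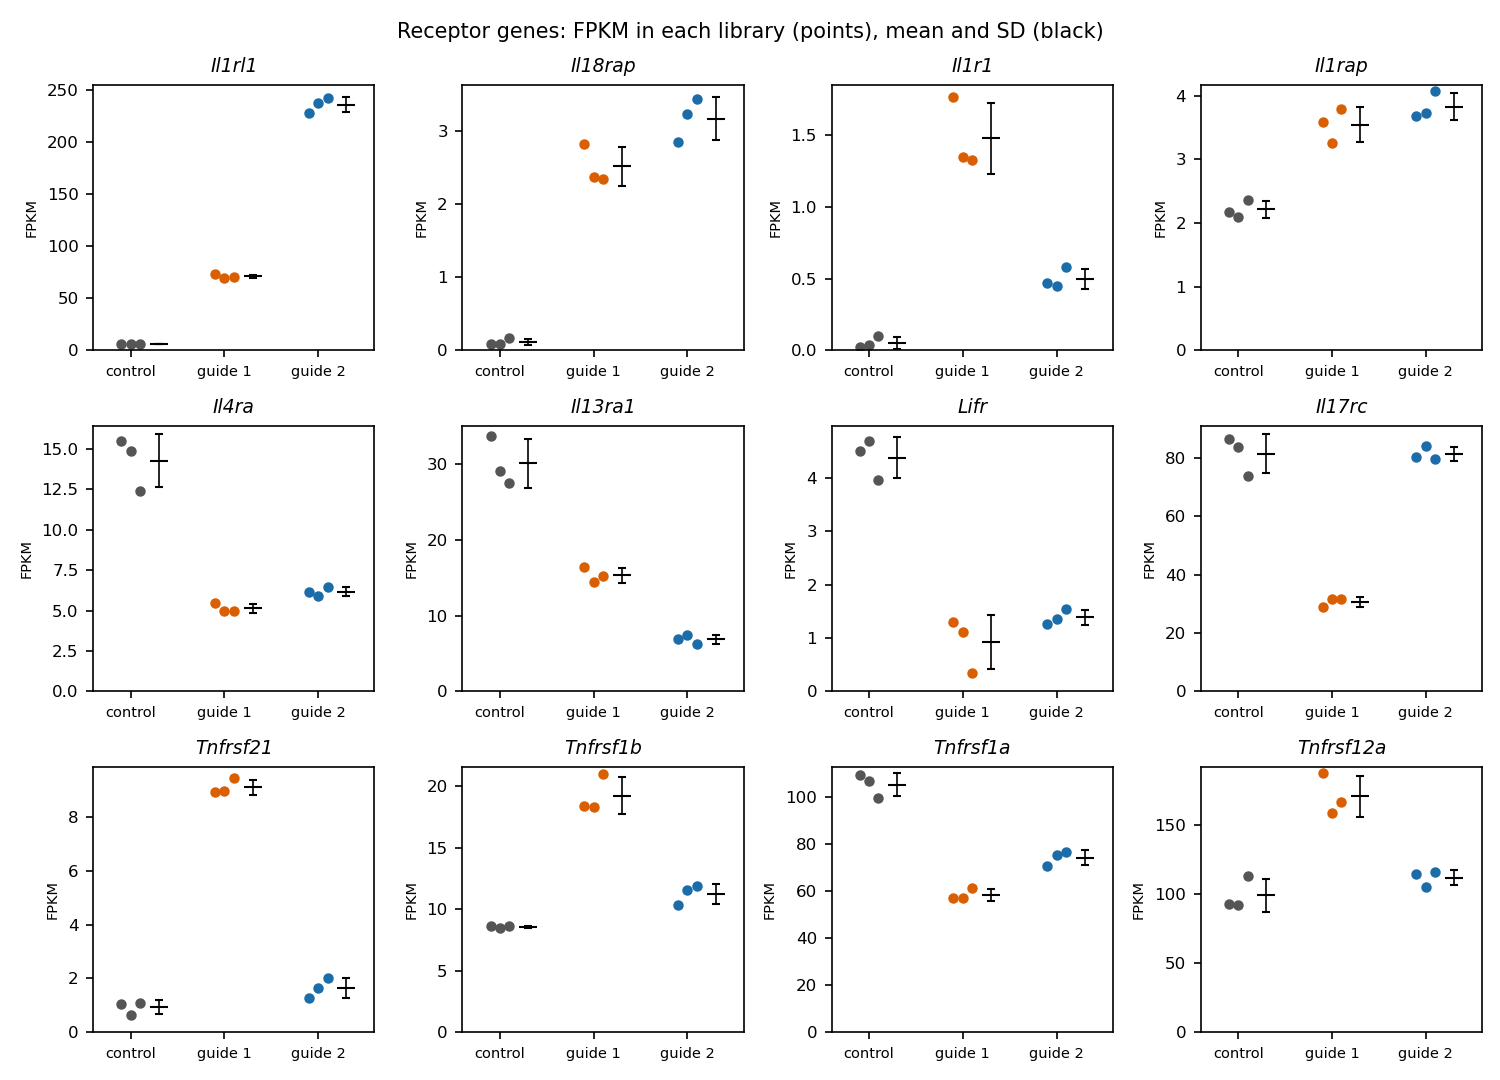
FPKM of 12 receptor genes in each library by group; points are libraries, black marks the mean and SD of 3, and each axis starts at 0. The 4 interleukin-1 receptor family genes are higher in all knockout libraries, Il4ra, Il13ra1, Lifr and Tnfrsf1a are lower, and Il17rc is lower with guide 1 alone.

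The receptor genes for interleukin-4, interleukin-13 and LIF fell in both knockouts. Il4ra, the chain shared by the interleukin-4 and interleukin-13 receptors, was at 15.5, 14.9 and 12.4 FPKM in control, 5.47, 4.95 and 5.00 with guide 1, and 6.16, 5.89 and 6.46 with guide 2. Every knockout library was well below every control. It fell by 1.31 ± 0.0792 log2 units (adjusted p = 2.52e-07) and 1.08 (adjusted p = 1.24e-06). Il13ra1, its partner in the type II receptor, was at 33.7, 29.1 and 27.5 FPKM in control, 16.4, 14.4 and 15.2 with guide 1, and 6.98, 7.44 and 6.23 with guide 2. Guide 2 was the lowest, without overlap. Il13ra1 fell by 0.93 (adjusted p = 5.12e-06) and 1.98 (adjusted p = 2.83e-08).

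Lifr, the signalling partner of gp130 for LIF, was at 4.50, 4.68 and 3.95 FPKM in control, 1.29, 1.12 and 0.351 with guide 1, and 1.26, 1.36 and 1.54 with guide 2. Both knockouts were below the control and overlapped each other, and 1 guide 1 library was far lower than the rest. Lifr fell by 1.52 ± 0.169 log2 units with guide 1 (adjusted p = 2.18e-05), or by 1.28 without that library, and by 1.17 with guide 2 (adjusted p = 0.000171). Il11ra1, the receptor for interleukin-11, fell by 0.86 with guide 1 (adjusted p = 7.23e-06) and differed by -0.10 with guide 2 (adjusted p = 0.333), or by -0.19 without control replicate 3 (adjusted p = 0.0216). Il23r, a receptor chain of Th17 cells, fell by 0.64 and 0.50 from a low level. Il10rb, shared by interleukin-10 family receptors, rose by 0.37 and 0.38, and Il3ra, which binds interleukin-3, rose by 0.68 with guide 1 (adjusted p = 0.000116) and differed by 0.03 with guide 2 (adjusted p = 0.773).

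Of the interleukin-17 receptor genes, Il17rc differed by guide. It encodes a chain of the receptor for interleukin-17A and 17F, and was at 86.5, 83.8 and 73.8 FPKM in control, 28.8, 31.5 and 31.6 with guide 1, and 80.2, 83.8 and 79.7 with guide 2. Guide 2 lay within the control range and guide 1 was far below it. Il17rc fell by 1.38 ± 0.0634 log2 units with guide 1 (adjusted p = 3.48e-08) and differed by 0.00 with guide 2 (adjusted p = 0.993). Il17rb, the receptor for interleukin-25, was at 1.81, 1.90 and 1.03 FPKM in control, 0, 0 and 0.0160 with guide 1, and 0.00474, 0.0509 and 0.0477 with guide 2. No knockout library came near a control library, and it fell by 1.34 (adjusted p = 6.89e-06) and 1.30 (adjusted p = 1.06e-05). Il17ra, the common chain, differed by -0.12 (adjusted p = 0.0586), or -0.16 without control replicate 1 (adjusted p = 0.0286), and by -0.05 (adjusted p = 0.383).

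The TNF receptor genes went in opposite directions. Tnfrsf1a, the widely expressed TNF receptor with a death domain, was at 109, 107 and 99.5 FPKM in control, 57.0, 57.0 and 61.4 with guide 1, and 70.7, 75.1 and 76.6 with guide 2. All knockout libraries were below the control, and guide 1 was the lowest. It fell by 0.84 ± 0.052 log2 units (adjusted p = 3.12e-07) and 0.50 (adjusted p = 1.67e-05). Tnfrsf1b, the TNF receptor without a death domain, was at 8.65, 8.49 and 8.64 FPKM in control, 18.4, 18.3 and 20.97 with guide 1, and 10.3, 11.6 and 11.9 with guide 2. Its groups were in the opposite order, without overlap. It rose by 1.07 ± 0.0659 (adjusted p = 2.79e-07) and 0.35 (adjusted p = 0.000993).

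Tnfrsf21, which encodes death receptor 6, was at 1.06, 0.632 and 1.10 FPKM in control, 8.92, 8.95 and 9.42 with guide 1, and 1.29, 1.65 and 2.00 with guide 2. Guide 1 stood apart and guide 2 was a little above the control. It rose by 2.40 ± 0.117 log2 units (adjusted p = 5.29e-08) and 0.46 (adjusted p = 0.00653). The second control library was under 0.6 of the next lowest, and without it the guide 2 difference was 0.34 (adjusted p = 0.0221). Tnfrsf26, a mouse receptor of the TRAIL receptor cluster, was at 0.291, 0.412 and 0.344 FPKM in control, 1.91, 1.85 and 2.31 with guide 1, and 1.29, 1.27 and 1.17 with guide 2. It rose without overlap by 1.16 (adjusted p = 6.51e-07) and 0.73 (adjusted p = 2.28e-05). Tnfrsf19 (TROY) was at 1.03, 0.925 and 0.867 FPKM in control, 1.16, 1.12 and 1.33 with guide 1, and 3.11, 3.24 and 3.67 with guide 2. Here guide 2 stood apart: the difference was 0.18 (adjusted p = 0.0563) with guide 1 and 1.16 (adjusted p = 5.52e-07) with guide 2. Tnfrsf12a, the receptor for TWEAK and the most abundant of those that rose, was at 159 to 188 FPKM with guide 1 against 92.2 to 113 in control (0.78, adjusted p = 2.26e-05) and at 106 to 116 with guide 2 (0.18, adjusted p = 0.101). The guide 2 difference passed without control replicate 3 (0.27, adjusted p = 0.00902) and with quantile normalization (0.22, adjusted p = 0.0393). Tnfrsf23, a mouse decoy receptor for TRAIL, rose by 0.90 with guide 1 (adjusted p = 2.16e-05) and differed by 0.16 with guide 2 (adjusted p = 0.179).

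All 3 NF-kB subunit genes among the members rose in the mean of both knockouts, by 0.41 to 0.86 log2 units, with a different balance in each. Nfkb1 encodes p105, the precursor of p50, and was at 9.70, 8.05 and 9.29 FPKM in control, 8.72, 9.18 and 9.75 with guide 1, and 15.0, 16.7 and 17.1 with guide 2. Guide 1 overlapped the control and guide 2 was above both. The difference was 0.03 ± 0.0755 with guide 1 (adjusted p = 0.729) and 0.79 with guide 2 (adjusted p = 9.11e-06). Nfkb2 encodes p100, the precursor of p52 in the non-canonical pathway, and was at 17.6, 16.3 and 18.4 FPKM in control, 28.2, 28.1 and 28.2 with guide 1, and 21.5, 22.3 and 23.0 with guide 2. Guide 1 was the highest, without overlap. Nfkb2 rose by 0.67 (adjusted p = 1.39e-06) and 0.34 (adjusted p = 0.000224).

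Relb, the partner of p52, was at 3.64, 3.15 and 3.98 FPKM in control, 6.90, 6.94 and 7.85 with guide 1, and 7.24, 7.80 and 7.30 with guide 2. The knockouts overlapped each other above the control. It rose by 0.84 (adjusted p = 4.9e-06) and 0.88 (adjusted p = 4.23e-06), and the difference between the guides was 0.04 ± 0.0766 (adjusted p = 0.702). Between the guides, Nfkb1 was higher with guide 2 by 0.75 (adjusted p = 1.89e-05) and Nfkb2 was lower by 0.33, which is -0.33 ± 0.051 on the same scale (adjusted p = 0.000391). Rel and Rela are not analysed here.

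Of the 4 IkB genes among the members, 3 rose with guide 1 and 3 with guide 2. Nfkbia, the inhibitor IkB-alpha, was at 11.8, 14.3 and 13.7 FPKM in control, 31.7, 29.5 and 29.8 with guide 1, and 26.6, 26.7 and 27.5 with guide 2. Every knockout library was well above the highest control. It rose by 1.14 ± 0.0644 log2 units (adjusted p = 1.57e-07) and 0.97 (adjusted p = 6.08e-07). Nfkbie, the inhibitor IkB-epsilon, was at 2.99, 2.85 and 2.80 FPKM in control, 9.82, 9.49 and 8.96 with guide 1, and 5.75, 5.86 and 7.29 with guide 2. The groups did not overlap, and guide 1 was the highest. Nfkbie rose by 1.43 ± 0.0797 (adjusted p = 1.42e-07) and 0.91 (adjusted p = 4.79e-06). These are genes with a kappaB match in the windows printed above.

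Nfkbiz, a nuclear IkB protein that acts as a co-activator of secondary NF-kB targets, was at 1.14 to 1.28 FPKM in control, 1.07 to 1.65 with guide 1 and 2.98 to 3.37 with guide 2. Guide 1 straddled the control and guide 2 was above it. The difference was 0.12 (adjusted p = 0.278) with guide 1, or 0.22 without guide 1 replicate 1 (adjusted p = 0.0372), and 0.93 (adjusted p = 1.29e-05) with guide 2. Nfkbib, the inhibitor IkB-beta, rose by 0.29 with guide 1 (adjusted p = 0.00188) and differed by 0.14 with guide 2 (adjusted p = 0.0628, or 0.0496 without guide 1 replicate 3).

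**Figure D4:**
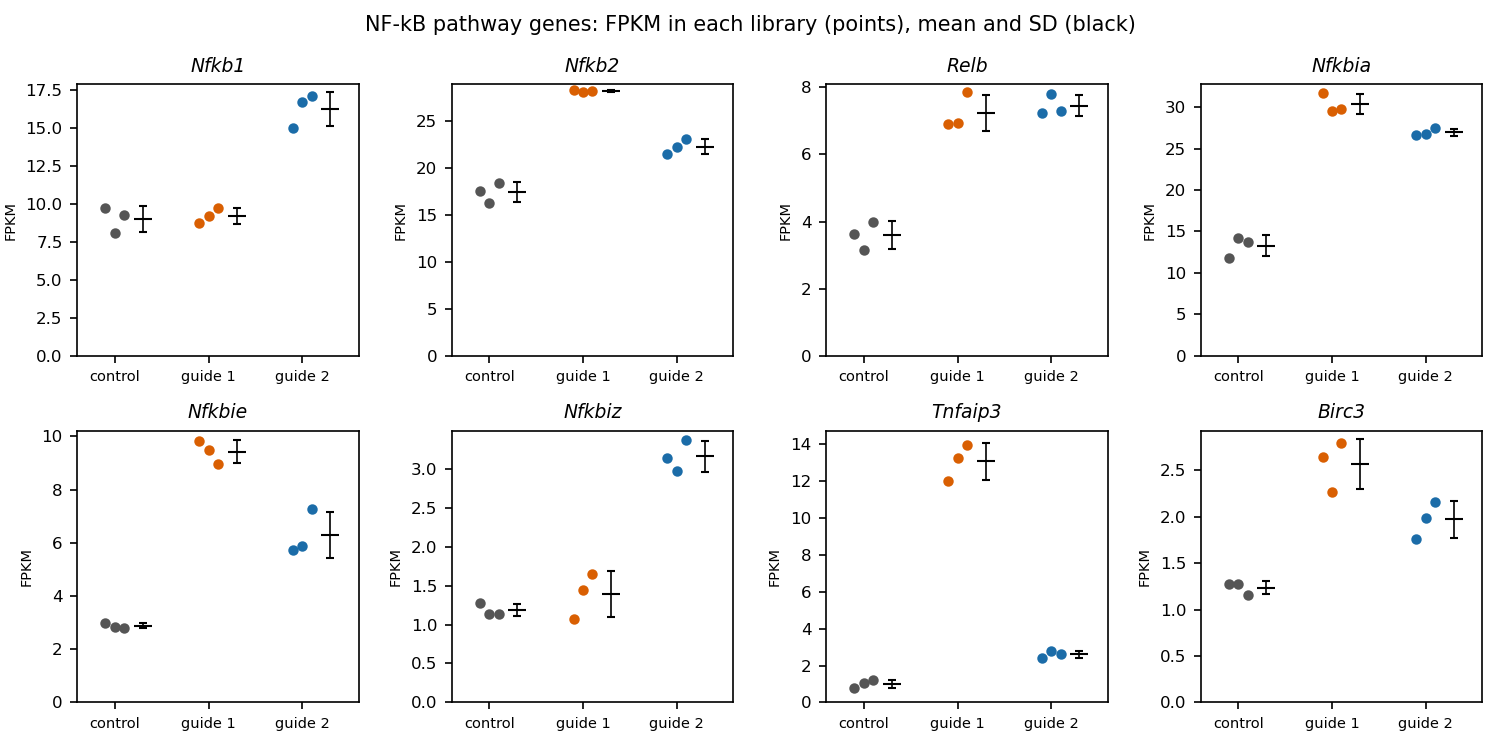
FPKM of 8 NF-kB pathway genes in each library by group; points are libraries, black marks the mean and SD of 3, and each axis starts at 0. Nfkbia, Nfkbie, Relb and Birc3 are higher in every knockout library than in any control, Tnfaip3 is highest with guide 1, and Nfkb1 and Nfkbiz are higher with guide 2 and overlap the control with guide 1.

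Tnfaip3, Tnfaip2 and Birc3 rose in both knockouts. Tnfaip3 encodes A20, a ubiquitin-editing enzyme that turns NF-kB signalling off, and was at 0.790, 1.04 and 1.21 FPKM in control, 12.0, 13.3 and 13.9 with guide 1, and 2.40, 2.78 and 2.64 with guide 2. The groups did not overlap, and guide 1 was several times above guide 2. Tnfaip3 rose by 2.81 ± 0.088 log2 units (adjusted p = 2.45e-09) and 0.85 (adjusted p = 1.63e-05). Tnfaip2, a TNF-inducible gene of the exocyst-related family, was at 9.44, 9.11 and 7.35 FPKM in control, 26.4, 25.7 and 27.0 with guide 1, and 15.4, 16.4 and 16.2 with guide 2. Its order of groups was that of Tnfaip3, and it rose by 1.51 (adjusted p = 7.43e-08) and 0.83 (adjusted p = 7.65e-06). Birc3, the ubiquitin ligase cIAP2, was at 1.16 to 1.28 FPKM in control, 2.27 to 2.79 with guide 1 and 1.76 to 2.16 with guide 2. It rose by 0.67 (adjusted p = 3.47e-05) and 0.41 (adjusted p = 0.00129).

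Among the TRAF adaptors, Traf4, which is known for its part in epithelial junctions and cell migration, was at 15.8, 15.9 and 16.4 FPKM in control, 33.6, 33.6 and 33.2 with guide 1, and 14.9, 17.3 and 17.4 with guide 2. Guide 1 stood apart and guide 2 overlapped the control. It rose by 1.02 ± 0.0589 log2 units with guide 1 (adjusted p = 1.83e-07) and differed by 0.04 with guide 2 (adjusted p = 0.581), or 0.11 without guide 2 replicate 1 (adjusted p = 0.0459). Traf5, which acts downstream of TNF receptor family members, rose by 0.67 and 0.69, and the difference between the guides was 0.02 ± 0.0711 (adjusted p = 0.834). The remaining TRAF genes differed by at most 0.31 in size: Traf2 rose by 0.31 with guide 2 (adjusted p = 0.000571) and Traf3 by 0.28 with guide 1 (adjusted p = 0.00863), and Traf7 fell by 0.19 with guide 1 (adjusted p = 0.000816). Birc2, the ubiquitin ligase cIAP1, fell by 0.24 with guide 2 (adjusted p = 0.0269), a call not kept without, for example, the first guide 2 library (-0.18, adjusted p = 0.0932). The calls of Traf6 with guide 2 (0.18) and of Traf3ip2 with guide 1 (0.20) were also lost without single libraries, with adjusted p up to 0.152 and 0.0919. Of the others with a TNF or NF-kB symbol, Nfkbil1 rose by 0.38 in each knockout, Tnfaip8 fell by 0.19 with guide 2 (adjusted p = 0.0111), and Tnfaip1 passed in neither, with differences of 0.10 and 0.09.

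The guides were compared directly for all members. With guide 2 against guide 1, 22 members were higher and 19 lower, and of all tested genes 29.4% were higher and 22.4% lower. Of the ligands 11 were higher with guide 2 and 4 lower, of the receptors 7 and 8, and of the regulators 4 and 7. Higher with guide 2 by at least 1 log2 unit were Il33, Cxcl15, Cxcl10, Il1rl1, Il17rc, Ccl5, Il34 and Lif, and lower by as much were Ccl2, Tnfaip3, Tnfrsf21, Il13ra1 and Tnfsf9. Of all tested genes, 2.27% and 2.64% differed by as much. The largest difference was that of Il33, 2.75 ± 0.0991, and the largest in the other direction was that of Ccl2, -2.30 ± 0.0727. In 24 members every guide 2 library was above every guide 1 library and in 21 below (33.5% and 26.1% of all tested genes). The median difference was 0.04 for the members and 0.03 for all tested genes.

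Genes around these members were taken from lists that do not share the member symbols, and counts are for the mean of both knockouts, in which 37.0% of all tested genes rose and 41.3% fell. Of 19 tested genes of interleukin-1 receptor, Toll-like receptor and IkB kinase signalling, 6 rose and 12 fell, with a median log2 difference of -0.20. The adaptor gene Card10 rose by 0.84 and the kinase gene Irak2 by 0.64. Irak3, an inhibitory kinase of interleukin-1 receptor signalling, fell by 1.51 (adjusted p = 1.12e-07), from 3.04 ± 0.226 FPKM (SD, n = 3) to 0.325 ± 0.135 with guide 1 and 0.529 ± 0.0987 with guide 2. Ltbr, the lymphotoxin beta receptor, fell by 0.41. Of 15 tested ubiquitin-editing and feedback genes, 4 rose and 10 fell, with a median of -0.25. Zc3h12a, which encodes the cytokine mRNA nuclease Regnase-1, rose by 0.73, and Sharpin, a subunit of the linear ubiquitin ligase, by 0.58. Bcl3, a nuclear IkB protein, fell by 1.28 (adjusted p = 2.83e-07), and Otulin, which removes linear ubiquitin, by 0.70.

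NF-kB target genes outside the cytokine symbols were divided: of 17 tested, 9 rose and 6 fell, with a median of 0.26. Ptgs2, the inducible cyclo-oxygenase, rose by 2.97 (adjusted p = 9.07e-09), from 5.10 ± 1.25 FPKM (SD, n = 3) to 39.0 ± 2.73 with guide 1 and 54.9 ± 5.55 with guide 2. Plau, the urokinase plasminogen activator, rose by 2.12 (adjusted p = 3.73e-10), with 11.5, 94.2 and 29.98 FPKM as the means of control, guide 1 and guide 2. Icam1, the adhesion molecule that leukocytes bind, was at 5.34, 4.67 and 4.65 FPKM in control, 0.238, 0.195 and 0.163 with guide 1, and 0.0288, 0.0486 and 0.0493 with guide 2. The knockout libraries were close to 0 and no control library was near them, and Icam1 fell by 2.40 log2 units (adjusted p = 1.03e-09). Ptx3, a secreted pentraxin of innate immunity, fell by 2.16 (adjusted p = 3.58e-09), from 217 ± 26.9 FPKM (SD, n = 3) to 46.8 ± 3.03 and 48.4 ± 1.80.

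Osmr, Socs3 and Stat3, which act in the signalling of gp130 cytokines such as LIF and interleukin-6, fell. Il6st, the gene of gp130 itself, is not analysed here. Of 21 tested genes of JAK-STAT signalling 7 rose and 11 fell, with a median of -0.14. Osmr, the gp130 partner that binds oncostatin M, was at 13.2, 12.8 and 12.4 FPKM in control, 1.79, 2.00 and 1.96 with guide 1, and 2.78, 3.50 and 3.18 with guide 2. The groups did not overlap, and Osmr fell by 1.99 log2 units in the mean of both knockouts (adjusted p = 2.25e-09). Socs3, the STAT3-induced inhibitor of gp130, was at 33.3, 32.4 and 29.8 FPKM in control, 10.1, 8.71 and 9.90 with guide 1, and 17.1, 17.5 and 18.4 with guide 2. Its order was control, guide 2, guide 1, without overlap, and it fell by 1.23 (adjusted p = 3.17e-08). Stat3, which was singled out after its values were seen, was in the same order, with 18.2 to 20.1 FPKM in control, 7.07 to 7.60 with guide 1 and 12.6 to 14.1 with guide 2, and fell by 0.89 (adjusted p = 1.56e-07). Ptpn6, the phosphatase SHP-1, rose by 1.22 (adjusted p = 6.19e-07), and Ctf1, the gp130 ligand cardiotrophin-1, by 0.44. The mean for Ctf1 came from guide 2 (0.84, adjusted p = 2.63e-05), as its difference was 0.04 with guide 1 (adjusted p = 0.725).

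**Figure D5:**
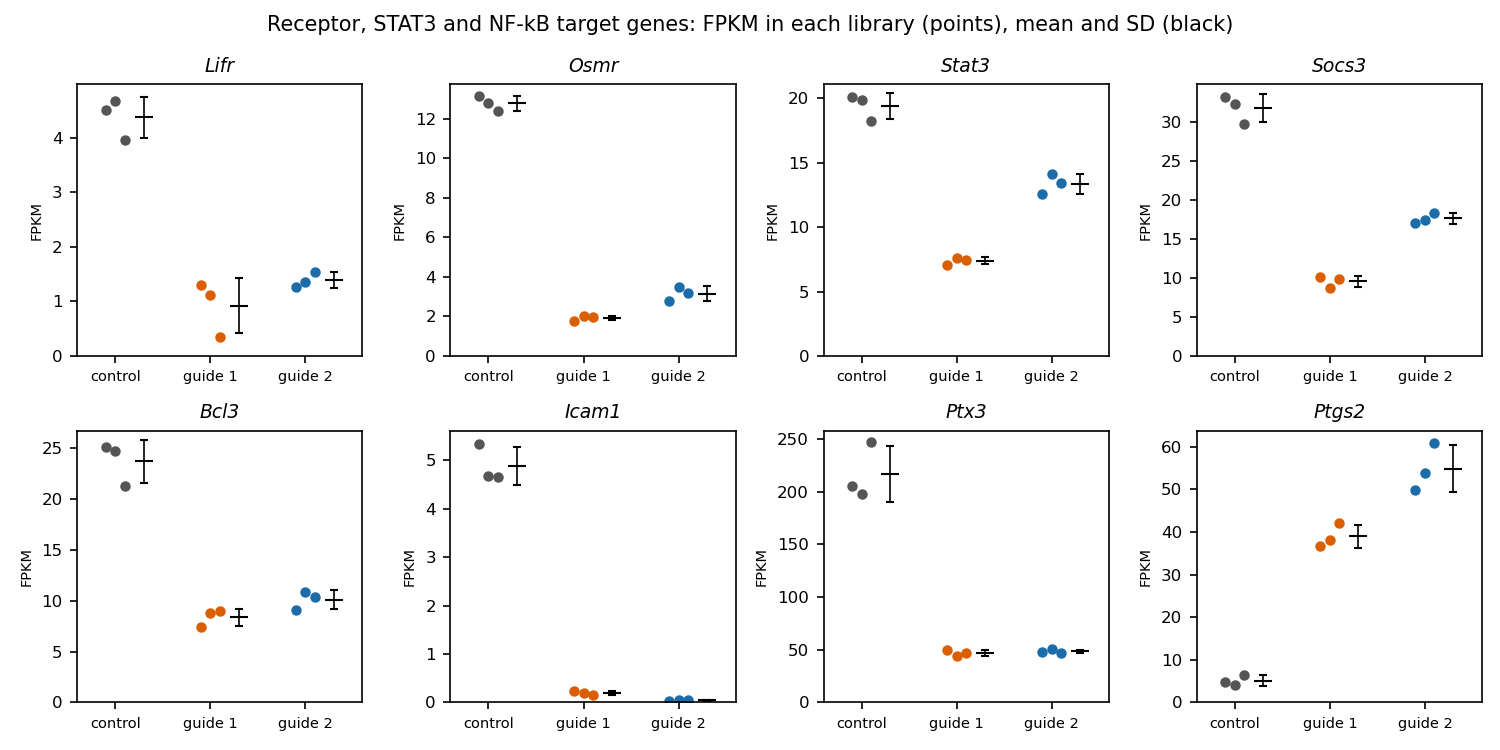
FPKM of Lifr and 7 genes of gp130-STAT3 signalling and of NF-kB targets in each library by group; points are libraries, black marks the mean and SD of 3, and each axis starts at 0. All are lower in every knockout library than in any control except Ptgs2, which is higher. The genes drawn are a choice and do not stand for their lists. Of 17 tested NF-kB targets 9 rose and 6 fell, and of 21 JAK-STAT genes 7 rose and 11 fell. Plau and Ptpn6, which rose, are not drawn.

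Of 8 tested chemokine and cytokine genes with other symbols, 5 rose and 3 fell, with a median of 0.33. Cx3cl1, the membrane-bound chemokine fractalkine, had means of 3.48 ± 0.371 FPKM (SD, n = 3) in control, 7.94 ± 0.857 with guide 1 and 21.04 ± 1.22 with guide 2, and rose by 1.65 (adjusted p = 2.84e-08). Mif, a macrophage migration inhibitory factor, rose by 0.69. Ackr3, the scavenger receptor of CXCL12, fell by 1.79 (adjusted p = 3.32e-07), from 16.8 ± 3.26 to 3.56 ± 0.0385 with guide 1 and 4.69 ± 0.686 with guide 2. Fas, a death receptor, fell by 0.60.

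Immediate early genes, which respond to serum and to handling of cells and include subunits of AP-1, were higher in the knockouts. Of 12 tested, 11 rose in the mean of both knockouts, and their median log2 difference was 0.83. Fosl1 rose by 2.08 and Egr1 by 1.70. Their summed level was 312 to 336 FPKM in control, 459 to 491 with guide 1 and 424 to 442 with guide 2. Of 9 listed heat shock genes only 3 were analysed, and all 3 rose, where 37.0% of all tested genes rose. The increase was 1.93 for Hspa1b, 1.28 for Hspa1a and 0.20 for Hsp90aa1. The part of these groups in the cytokine and NF-kB results was not tested.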

How the data were processed

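The authors deposited FPKM values per gene in each of 9 stranded poly(A) libraries, per the file headers and the labels' protocols. Cutadapt, FastQC, HISAT2 and StringTie are named in the submitters' processing notes; which versions, build and annotation were used is not given in the sources used here. Read totals cannot be had from FPKM, so counting error is unknown and count tests were not used. Other per-sample columns numbered 0. Groups came from the sample titles. Of 15620 rows, 174 with 62 repeated symbols were left out, and none of these matched the member symbols. Genes with a mean under 0.5 FPKM (7689) were not tested. The other 7757 were fitted as log2(FPKM + 1) by limma 3.58.1 (R 4.3.3) on all libraries together, with a prior variance that follows the mean and Benjamini-Hochberg adjustment. Fold changes on this scale understate those of low genes. SE is the standard error of the model.

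The members and lists were chosen with earlier results of these data known. Values of every library are given for members called with a difference of at least 1 log2 unit in either knockout or between them and for NF-kB subunits. Those of Tnfrsf1a were added after they were seen. From each list the 2 largest called genes in each direction are named. The tests were checked on simulated data in which genes varied independently and no rows were selected. That check does not cover the apparent selection of rows in this table. Rows with both knockouts on 1 side of a common control can give p-values that are too small for unchanged genes, so p-values multiplied by 1.5 were an alternative. The others were a pseudocount of 0.1, testing all genes, a limit of 1 FPKM, quantile normalization, trimmed mean rescaling, a constant prior variance, a block for the replicate number, a fit of the compared groups alone, and leaving out each library in turn. Exon overlap (GENCODE) and promoters (RefSeq) were read from GRCm38 annotation by symbol, which may differ from the annotation the authors used.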

Additional observations from a re-analysis of the deposited data

Results flagged for a closer look

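The 2 knockouts differed from each other, as a direct limma test of guide 2 against guide 1, by at least 1 log2 unit in 13 members, with Benjamini-Hochberg adjusted p-values from 3.05e-09 to 6.04e-05. The differences that were higher with guide 2 were 2.75 for Il33, 2.43 for Cxcl15, 1.93 for Cxcl10, 1.72 for Il1rl1, 1.38 for Il17rc, 1.16 for Ccl5, 1.10 for Il34 and 1.03 for Lif. Those that were lower with guide 2 were -2.30 for Ccl2, -1.96 for Tnfaip3, -1.94 for Tnfrsf21, -1.05 for Il13ra1 and -1.01 for Tnfsf9. In each of these genes the 3 libraries of guide 1 and the 3 of guide 2 did not overlap. Each guide stands for 1 clone, so the guide and the clone cannot be told apart. Groups of 3 libraries were not tested for a library that stands apart, and were only screened for one under 0.6 of the next lowest. Among these 13 genes the screen marked a control library for Cxcl15 and for Tnfrsf21, which does not enter the difference between guides. Ccl5 with guide 1, at 0.0432, 0.205 and 0.316 FPKM, was too low to be screened and does enter it.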

How the results depend on the processing

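The member counts stayed within 1.5 times of those reported under every alternative run: members higher with guide 1 were 28 to 35 and lower 12 to 18, with guide 2 30 to 35 and 12 to 17, for the mean of both 36 to 41 and 14 to 19, and between guides 18 to 22 and 15 to 23. A filter of 1 FPKM left 55 of 63 members. Of 5703 alternative values of single genes, 5488 kept direction and call, 133 lost the call, 54 gained it and 28 changed sign. No value that changed sign was called in the reported fit. Values kept include genes called in neither fit. Part of the alternatives cannot change a difference, so direction was fixed there. These are testing all genes, the limit of 1 FPKM, the constant prior variance, the replicate block and the p-value multiplier. The fit of the compared groups alone and leaving out a library of another group are of the same kind. Changes of sign came with quantile normalization (guide 1: Birc2 0.0224; guide 2: Traf7 0.00194; between guides: Il10rb -0.0192 and Nfkbil1 -0.0197) and trimmed mean rescaling (guide 1: Birc2 0.00714; between guides: Traf5 -0.00935, Il10rb -0.0226 and Nfkbil1 -0.0258). They also came with leaving out 1 library, where guide 1 values ran from -0.0399 to 0.0809 for Nfkb1, from -0.111 to 0.0230 for Birc2 and from -0.0472 to 0.145 for Ctf1. Guide 2 values ran from -0.0267 to 0.101 for Il3ra, -0.0216 to 0.133 for Traf3, -0.0669 to 0.0458 for Il17rc and -0.239 to 0.103 for Il18bp. Between guides they ran from -0.0223 to 0.0482 for Traf5, -0.0284 to 0.0286 for Il10rb, -0.0255 to 0.0648 for Nfkbil1, -0.0432 to 0.0380 for Tnfaip1 and -0.0932 to 0.248 for Il18bp. The cause was not tested.

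The libraries of equal number deviated together with correlations of -0.078 to 0.212 over 9 pairs. Between knockout and control these were -0.078 to 0.066, and libraries of unequal number had -0.085 to 0.142. Between guide 1 and guide 2 they were 0.212, 0.032 and 0.177, and libraries of unequal number had -0.195 to 0.033. Whether equal numbers mark knockout libraries handled together was not tested. With the replicate block, members higher and lower were 30 and 17 with guide 1, 32 and 15 with guide 2, 38 and 19 for the mean, and 21 and 20 between guides.

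Limits: depth is unknown, each knockout is 1 clone, and the pseudocount of 1 sets the size of differences for genes near 0. With 0.1, no called difference changed direction, and those of low genes grew: with guide 2 to 5.10 for Il33, 4.25 for Lif, 3.95 for Il18rap, 3.44 for Ccl5, 1.99 for Il1r1, 1.62 for Ccl2 and 1.30 for Tnfaip3, and with guide 1 to 3.63 for Il18rap, 3.38 for Il1r1, 3.02 for Lif, -3.45 for Il6, -2.75 for Il1rn, -2.29 for Lifr, -4.07 for Icam1 and -2.93 for Irak3.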
